A study of Homo sapiens with 96 samples.

Results

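Retained introns (RI) of 100 nt or less were followed in A549 cells, a human lung adenocarcinoma line, after inhibition of protein arginine methyltransferases (PRMTs). The introns were chosen by length alone, as the distance between the exons on either side, from the RI events listed in 8 tables of inhibitor-treated cells against DMSO. They numbered 962 of 4928 RI (19.5%) and lay in 750 genes, 151 of which held more than 1, with up to 7 in RHOT2. Introns of 1 gene share their transcripts and are not independent. Their median length was 83 nt, 882 were of 70 to 100 nt, 45 of 50 to 69 nt, and 35 of under 50 nt. All 8 tables listed 852 of them.

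Poly(A)-RNA seq was performed on 10 groups of 3 libraries. Cells received 0.01% DMSO for 4 or 7 days, GSK591 alone (1 µM) for 2, 4, or 7 days, MS023 alone (1 µM) for the same times, or the 2 compounds together (each 1 µM) for 2 or 4 days. Cells treated for 2 or 4 days were compared with DMSO at 4 days, so the 2-day comparisons also differ in time, and cells treated for 7 days with DMSO at 7 days. The labels do not say that the libraries of a group came from separate cultures, so p-values measure the spread between these libraries, which may be technical. Letters (a to c) mark the table order of a group's libraries. The tables hold splicing events and no gene expression, so the cell line was not checked against marker genes. Each library had 3148825 to 5224249 reads on RI events, of which 559134 to 1009991 (17.6% to 20.7%) lay on introns of 100 nt or less.

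GSK591 inhibits PRMT5, the main enzyme that places symmetric dimethylarginine, and MS023 inhibits the Type I PRMTs, which place asymmetric dimethylarginine. Their substrates include the Sm proteins of the spliceosomal small nuclear ribonucleoproteins and many RNA-binding proteins. Splicing of an intron requires a 5′ splice site, a branch point, and a 3′ splice site to be bound by the spliceosome, and very short introns leave little room between them. A retained intron stays in the polyadenylated RNA, often in the nucleus, or is exposed to nonsense-mediated decay after export.

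Retention is given as Ψ, the percent of length-corrected reads that include the intron, and ΔΨ is the difference between group means in percentage points, with its standard error (SE, n = 3 libraries per group). An intron was called at an adjusted p under 0.05 in a quasi-binomial test with Benjamini-Hochberg adjustment over all RI of the comparison. The introns below are examples from the text and are shown from the reference (GRCh37, the hg19 build of the tables), with the first and last 2 bases in capitals. PIH1D1 changed in opposite directions with the inhibitors, ACADVL and COMTD1 were called in all 8 comparisons with DMSO, SPSB3 fell with MS023, and HNRNPH1, FBL, and XBP1 are among the shortest. All lie between coding exons except that the XBP1 segment is not an annotated intron.
PIH1D1 intron 4 of 8 (chr19:49951166-49951257, minus strand): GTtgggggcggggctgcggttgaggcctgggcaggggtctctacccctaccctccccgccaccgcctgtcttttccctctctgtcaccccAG
ACADVL intron 5 of 19 (chr17:7124150-7124242, plus strand): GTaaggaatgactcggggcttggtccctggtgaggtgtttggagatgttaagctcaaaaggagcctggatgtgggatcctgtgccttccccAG
COMTD1 intron 4 of 6 (chr10:76994751-76994817, minus strand): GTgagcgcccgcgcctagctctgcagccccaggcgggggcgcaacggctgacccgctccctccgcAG
SPSB3 intron 5 of 6 (chr16:1827874-1827946, minus strand): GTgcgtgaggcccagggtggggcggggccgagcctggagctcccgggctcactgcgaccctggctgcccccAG
HNRNPH1 intron 7 of 13 (chr5:179044934-179044989, minus strand): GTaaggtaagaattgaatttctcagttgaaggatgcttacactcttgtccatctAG
FBL intron 2 of 6 (chr19:40331323-40331361, minus strand): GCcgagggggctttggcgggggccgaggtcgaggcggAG
XBP1 segment (chr22:29192110-29192135, minus strand): CTcagactacgtgcacctctgcagCA

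Of the 962 introns, 906 had GT-AG, 27 GC-AG, and 1 AT-AC ends, and 28 had other ends. The last group includes the 20 segments of 1 to 5 nt, which are too short to be spliced as introns. GC content had a median of 63.4%, above 59.4% in RI of over 100 to 300 nt, 55.3% in RI of over 300 to 1000 nt, and 47.6% in longer RI. The base at position 3 was A in 38.6% of the 942 introns long enough to have one, against 38.4%, 46.2%, and 56.9% in the longer classes. Cytosine filled a median of 43.8% of the 16 bases before the last 4, against 37.5%, 37.5%, and 25.0%. These are descriptions, and no feature was tested between length classes.

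Most short introns interrupted coding sequence (805, 83.7%). Of these 805, 132 (16.4%) would add whole codons without an in-frame stop if retained. The share was 9.52% for RI of over 100 to 300 nt, 2.06% for RI of over 300 to 1000 nt, and 0.461% for longer RI. A stop codon in the reading frame of the upstream exon was met in 51.8% of the short coding introns and in 77.8%, 95.6%, and 99.3% of the longer classes. Length alone makes a stop more likely in a longer intron. An annotated exon on the opposite strand overlapped 36 of the 962 introns, and a small RNA gene lay in 4.

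Retention of the short introns was higher in every library with GSK591 than in every DMSO library of the same comparison, and lower with MS023 by a smaller margin. The median Ψ over the 719 introns with at least 10 reads in all 30 libraries was 10.00% ± 0.34 (SD, n = 3) with DMSO at 4 days and 9.97% ± 0.72 at 7 days. GSK591 gave 15.9% ± 0.81 after 2 days, 16.6% ± 0.96 after 4, and 13.0% ± 0.47 after 7. Both inhibitors together gave 16.04% ± 0.10 and 16.3% ± 0.21 at 2 and 4 days. With MS023 at 2, 4, and 7 days it was 9.43% ± 0.29, 9.21% ± 0.30, and 8.42% ± 0.22, and on each day all 3 libraries lay below the 3 DMSO libraries of the comparison. At 2 days the groups nearly touched, with 9.698% in the highest MS023 library and 9.704% in the lowest DMSO library. RI of over 100 to 300 nt had a higher median, of 14.8% ± 0.66 with DMSO at 4 days and 25.8% ± 0.74 with GSK591 at 4 days. Among the 719 introns Ψ with DMSO at 4 days was under 10% for 359, from 10% to 50% for 215, from 50% to 90% for 63, and 90% or more for 82.

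**Figure D1:**
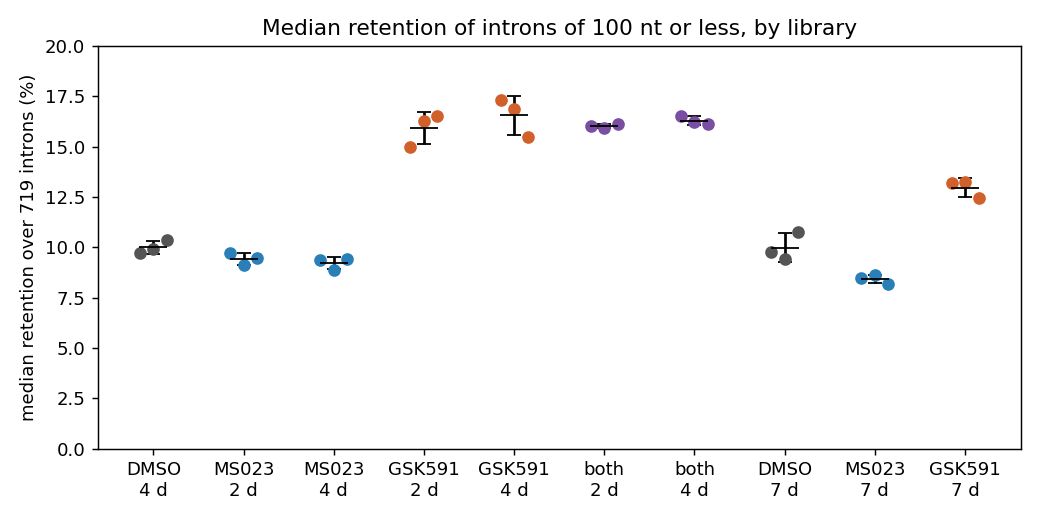
Median retention (Ψ, in percent) over 719 introns of 100 nt or less in each of 30 libraries, by treatment and day; points are libraries, and bars give the mean and SD of 3. The GSK591 and co-treated libraries lie between 12.4% and 17.3%, and the DMSO and MS023 libraries between 8.18% and 10.8%.

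The comparisons with DMSO ask which introns each inhibitor changes. With GSK591 at 2 days 220 of 760 tested short introns rose and 8 fell, where 24% and 2.38% of all RI tested did. At 4 days 284 of 773 rose and 19 fell (all RI, 33.9% and 4.32%). At 7 days 182 of 757 rose and 25 fell (all RI, 21.8% and 6.1%). Co-treatment raised 266 of 763 and lowered 16 at 2 days (all RI, 29.7% and 5.03%). At 4 days it raised 275 of 775 and lowered 23 (all RI, 33.6% and 6.1%). The short introns called higher made up 36.7% of those tested with GSK591 at 4 days, close to the share among all RI. Limma on the log odds of inclusion called 137, 221, and 145 short introns with GSK591 at 2, 4, and 7 days, in either direction. An F test on the residual degrees of freedom alone, a form of the dispersion compared with the calls in view, called 63, 166, and 87 with GSK591, 116 and 171 with both, and 0 with MS023 on each day. At 2 days the number of calls with GSK591 moved from 228 to 130, 136, and 141 without DMSO library a, b, or c, and to 139 without GSK591 library b. At 7 days it moved from 207 to 125 and 135 without DMSO library b or c and to 137 and 133 without GSK591 library a or c.

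With MS023 the calls were fewer and mostly lower. They numbered 5 higher and 18 lower of 770 at 2 days (all RI, 1.44% and 4.21%). At 4 days they were 5 higher and 30 lower of 778 (all RI, 1.57% and 5.6%), and at 7 days 3 higher and 62 lower of 774 (all RI, 1.93% and 9.49%). Beside COMTD1, described below, the introns called higher were named after their values were seen. They included 2 short introns of FBXW5, a substrate receptor of a ubiquitin ligase, whose 80-nt intron went from 12.8% to 19.1% (adjusted p = 0.0112) at 4 days, and that of LTBR, the lymphotoxin beta receptor, from 1.78% to 3.34% (adjusted p = 0.0169). The others were in USF2 and GPAA1 at 2 days, P2RX4 at 4 days, and TAF1C and EEF1A1 at 7 days, of which TAF1C, a subunit of the RNA polymerase I initiation factor, went from 51.7% to 70.3% (adjusted p = 0.0218). The MS023 calls depend on the test. Limma called 0 short introns on each day, with 63, 99, and 120 at an unadjusted p under 0.05. Without any 1 library of either group the quasi-binomial test called 0 at 2 days, 0 or 1 at 4 days, and 3 to 13 at 7 days. For the introns named below as lower or higher with MS023 alone, the limma adjusted p lay between 0.0719 (ZNF692 at 7 days) and 0.527 (RPL10 at 4 days).

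**Figure D2:**
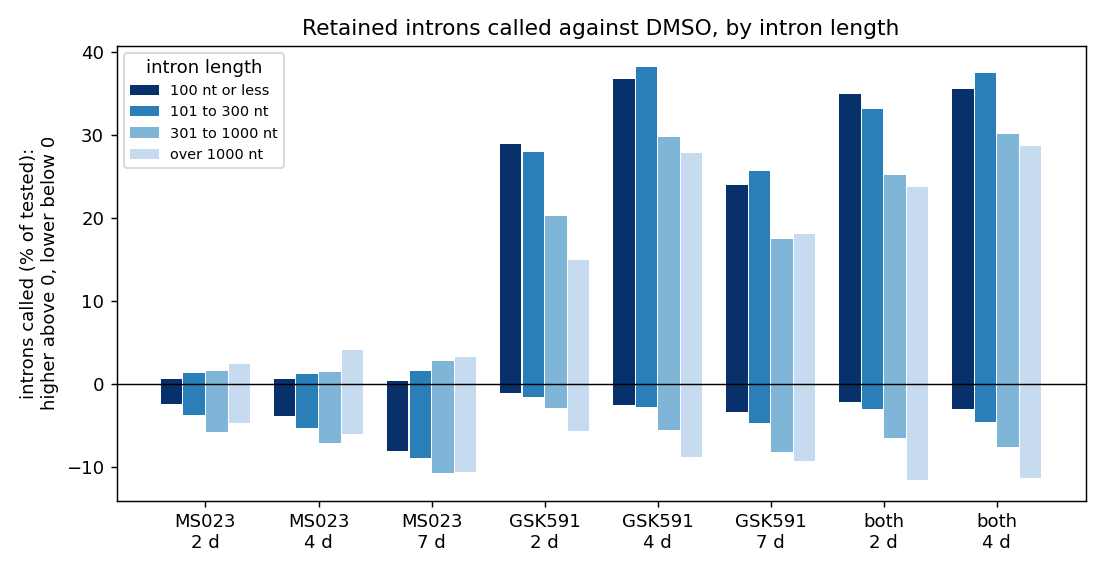
Percent of tested RI called higher (above 0) or lower (below 0) than DMSO in each of 8 comparisons, with a bar for each class of intron length. Introns of 100 nt or less were called higher in 36.7% with GSK591 at 4 days and lower in 8.01% with MS023 at 7 days.

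Within the short class nearly all calls lay at 50 nt and above. With GSK591 at 4 days 43.5% of 232 introns of 70 to 79 nt, 34.3% of 271 of 80 to 89 nt, 35.9% of 217 of 90 to 100 nt, and 33.3% of 36 of 50 to 69 nt rose. Of the 10 tested segments of 1 to 5 nt 0 rose and 1 fell. Of the 7 tested introns of 6 to 49 nt 0 were called in the quasi-binomial test or by limma, with 1 at an unadjusted p under 0.05, and their median Ψ with DMSO was 98.8%. Introns called higher had a median of 271.5 reads in the library with fewest, against 150.5 for those not called, and the part of depth in the calls was not tested. Their median length was 82.5 nt against 84.0 nt, and the median distance to the transcript end 2139 nt against 2593 nt.

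**Figure D3:**
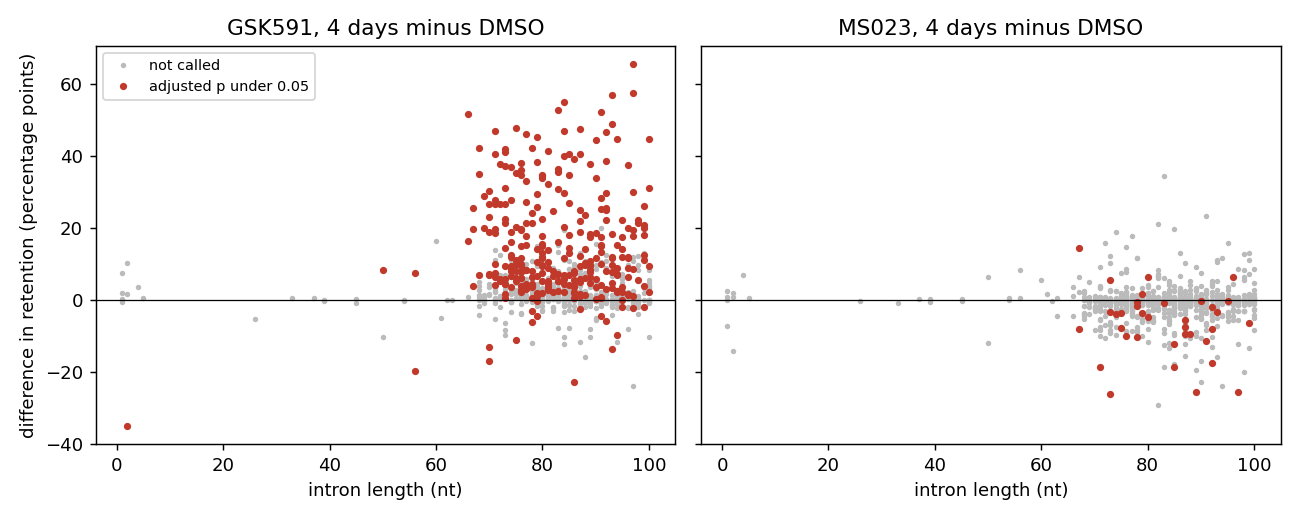
Difference in Ψ from DMSO (percentage points) against intron length (nt) for introns of 100 nt or less, with GSK591 (left) and MS023 (right) at 4 days; red points had an adjusted p under 0.05. With GSK591 284 points are called above 0 and 19 below it, and with MS023 5 and 30.

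Of the 719 introns tested in all 8 comparisons with DMSO, 297 (41.3%) were called in none, 107 (14.9%) in 5, and 4 (0.556%) in all 8, among them those of ACADVL (93 nt) and COMTD1 (67 nt). Over the 3537 RI of any length tested in all 8, the shares were 37.8%, 13.4%, and 0.848%. All comparisons at 2 and 4 days share the same DMSO libraries, as do those at 7 days, so these counts are not independent.

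ACADVL, the very long-chain acyl-CoA dehydrogenase of mitochondrial fatty acid oxidation, was called in all 8 comparisons through its intron 5 (93 nt). Ψ was 9.10%, 10.4%, and 8.68% with DMSO, 23.2%, 21.1%, and 19.04% with GSK591, and 6.98%, 5.20%, and 5.75% with MS023 at 4 days. No library of 1 group overlapped those of another. ΔΨ was 11.7 ± 1.3 (SE; adjusted p = 1.23e-07) with GSK591 and -3.42 ± 0.74 (adjusted p = 0.00635) with MS023. HNRNPH1, a splicing regulator that binds G-rich RNA, held introns of 56 and 92 nt. The 92-nt intron 10 had 10.2%, 11.2%, and 10.2% with DMSO and 37.3%, 35.2%, and 35.3% with GSK591 at 4 days, a ΔΨ of 25.4 ± 0.77 (adjusted p = 7.47e-15). With both inhibitors it was 25.9%, 27.5%, and 24.6%, lower than with GSK591 alone (ΔΨ -9.96 ± 1.1, adjusted p = 0.0218). In that contrast limma called 0 short introns, and without any 1 library the quasi-binomial test called 0. The 56-nt intron 7 had 5.36%, 4.84%, and 2.50% with DMSO and 12.6%, 10.4%, and 12.2% with GSK591, so that both groups were mostly spliced (ΔΨ 7.50 ± 1.1, adjusted p = 2.21e-07).

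COMTD1, a catechol-O-methyltransferase domain protein, was called higher in all 8 comparisons. At 4 days its 67-nt intron 4 had 22.6%, 23.9%, and 20.3% with DMSO. GSK591 gave 43.5%, 38.4%, and 44.3%, MS023 gave 34.6%, 33.9%, and 41.6%, and co-treatment gave 58.4%, 65.7%, and 60.9%. Each inhibitor alone lay above DMSO and co-treatment above both. ΔΨ was 19.8 ± 2.1 with GSK591 (adjusted p = 2.81e-06), 14.4 ± 2.7 with MS023 (adjusted p = 0.000943), and 39.4 ± 2.4 with both (adjusted p = 1.69e-10). Of the inhibitors set directly against each other, ΔΨ was 5.34 ± 3.1 at 4 days (adjusted p = 0.198).

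Neighbouring introns of SPSB3, a substrate receptor of a ubiquitin ligase, fell with MS023 and were not called with GSK591. The 73-nt intron 5 had 58.7%, 56.03%, and 59.1% with DMSO at 4 days, 35.8%, 25.4%, and 33.8% with MS023, and 52.1%, 46.6%, and 55.6% with GSK591. ΔΨ was -26.3 ± 3.3 (adjusted p = 0.000428) with MS023 and -6.53 ± 2.8 (adjusted p = 0.194) with GSK591. The DMSO libraries at 7 days, 37.8%, 40.7%, and 45.9%, lay below those at 4 days (ΔΨ -16.5 ± 2.6, adjusted p = 0.074). The 85-nt intron 4 had a ΔΨ of -18.7 ± 3.2 (adjusted p = 0.00594) with MS023 at 4 days. An annotated exon of the opposite strand overlaps both introns, and whether the counting used strand is not given in the sources used here. In ZNF692, a zinc finger protein, the 89-nt intron 7 had 77.2%, 73.5%, and 71.8% with DMSO and 51.1%, 46.0%, and 41.2% with MS023 at 7 days (ΔΨ -28.1 ± 3.3, adjusted p = 4e-05).

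Other introns moved apart with the inhibitors. In PIH1D1, a subunit of the R2TP chaperone that assembles ribonucleoproteins, the 92-nt intron 4 had 21.5%, 18.7%, and 20.9% with DMSO, 60.7%, 59.3%, and 56.6% with GSK591, and 11.6%, 10.6%, and 14.2% with MS023 at 4 days. Neither inhibitor group overlapped DMSO, and ΔΨ was 38.5 ± 1.5 (adjusted p = 1.32e-10) and -8.23 ± 1.4 (adjusted p = 0.00342). C9orf142 (PAXX), a factor of DNA end joining, was mostly retained in DMSO. Its 78-nt intron 3 had 66.7%, 61.5%, and 60.2% with DMSO, 78.1%, 80.2%, and 78.3% with GSK591, and 40.2%, 47.3%, and 41.0% with MS023 at 7 days (ΔΨ with MS023 -19.98 ± 3.0, adjusted p = 4.96e-06). In JMJD8, a protein with a Jumonji C domain, the 88-nt intron 5 had 38.0%, 44.6%, and 36.4% with DMSO, 46.6%, 52.6%, and 46.5% with GSK591, and 20.5%, 16.8%, and 17.5% with MS023 at 7 days (ΔΨ with MS023 -21.4 ± 2.8, adjusted p = 1.08e-07). The 92-nt intron 2 of EML2, a microtubule-associated protein related to EML3, had 35.3%, 27.3%, and 34.4% with DMSO, 57.2%, 49.8%, and 56.3% with GSK591, and 12.2%, 22.0%, and 9.84% with MS023 at 4 days, and an exon of the opposite strand overlaps it (ΔΨ with MS023 -17.6 ± 4.5, adjusted p = 0.0457).

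Few introns fell with GSK591. WRAP53, a protein that brings telomerase and small Cajal body RNAs to Cajal bodies, had an 86-nt intron 1 in its 5′ untranslated region with 22.8%, 31.7%, and 25.6% in DMSO at 4 days, 3.79%, 5.10%, and 2.71% with GSK591, and 3.31%, 3.04%, and 0.850% with both. No GSK591 or co-treated library reached the DMSO range, which for GSK591 was a condition for naming the intron. ΔΨ was -22.9 ± 2.7 with GSK591 (adjusted p = 5.05e-08) and -2.36 ± 3.1 with MS023 (adjusted p = 0.723). MAPK7, a mitogen-activated protein kinase, had a 94-nt intron with 31.2%, 28.4%, and 33.4% in DMSO and 17.0%, 8.27%, and 11.7% with GSK591 at 7 days (ΔΨ -18.7 ± 2.9, adjusted p = 0.00128). PLEKHJ1, a pleckstrin homology domain protein, had 23.9%, 25.0%, and 23.4% in DMSO and 8.81%, 10.8%, and 12.1% with GSK591 at 7 days in its 92-nt last intron (ΔΨ -13.5 ± 1.1, adjusted p = 1.09e-05). The 93-nt last intron of BCKDK, the kinase of the branched-chain ketoacid dehydrogenase, went from 40.1%, 46.4%, and 39.6% to 19.4%, 34.4%, and 31.4% at 4 days (ΔΨ -13.7 ± 5.1, adjusted p = 0.00307) and was 48.8%, 48.1%, and 44.7% with MS023. RABGGTB and SNHG11, which host small nucleolar RNAs, were called lower with GSK591 at 2 days. RABGGTB had 55.6% ± 3.6 (SD) with GSK591 at 2 days and 72.0% ± 4.2 with DMSO at 4 days, but 57.9% ± 9.3 with DMSO at 7 days. The 85-nt intron of SNHG11, a noncoding RNA, had 22.3%, 24.4%, and 26.9% with DMSO at 4 days but 9.46%, 12.6%, and 14.3% with DMSO at 7 days, against 14.5%, 11.4%, and 11.9% with GSK591 at 2 days (ΔΨ -11.9 ± 1.6, adjusted p = 0.0157) and 13.5%, 13.6%, and 11.4% with MS023 at 2 days.

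**Figure D4:**
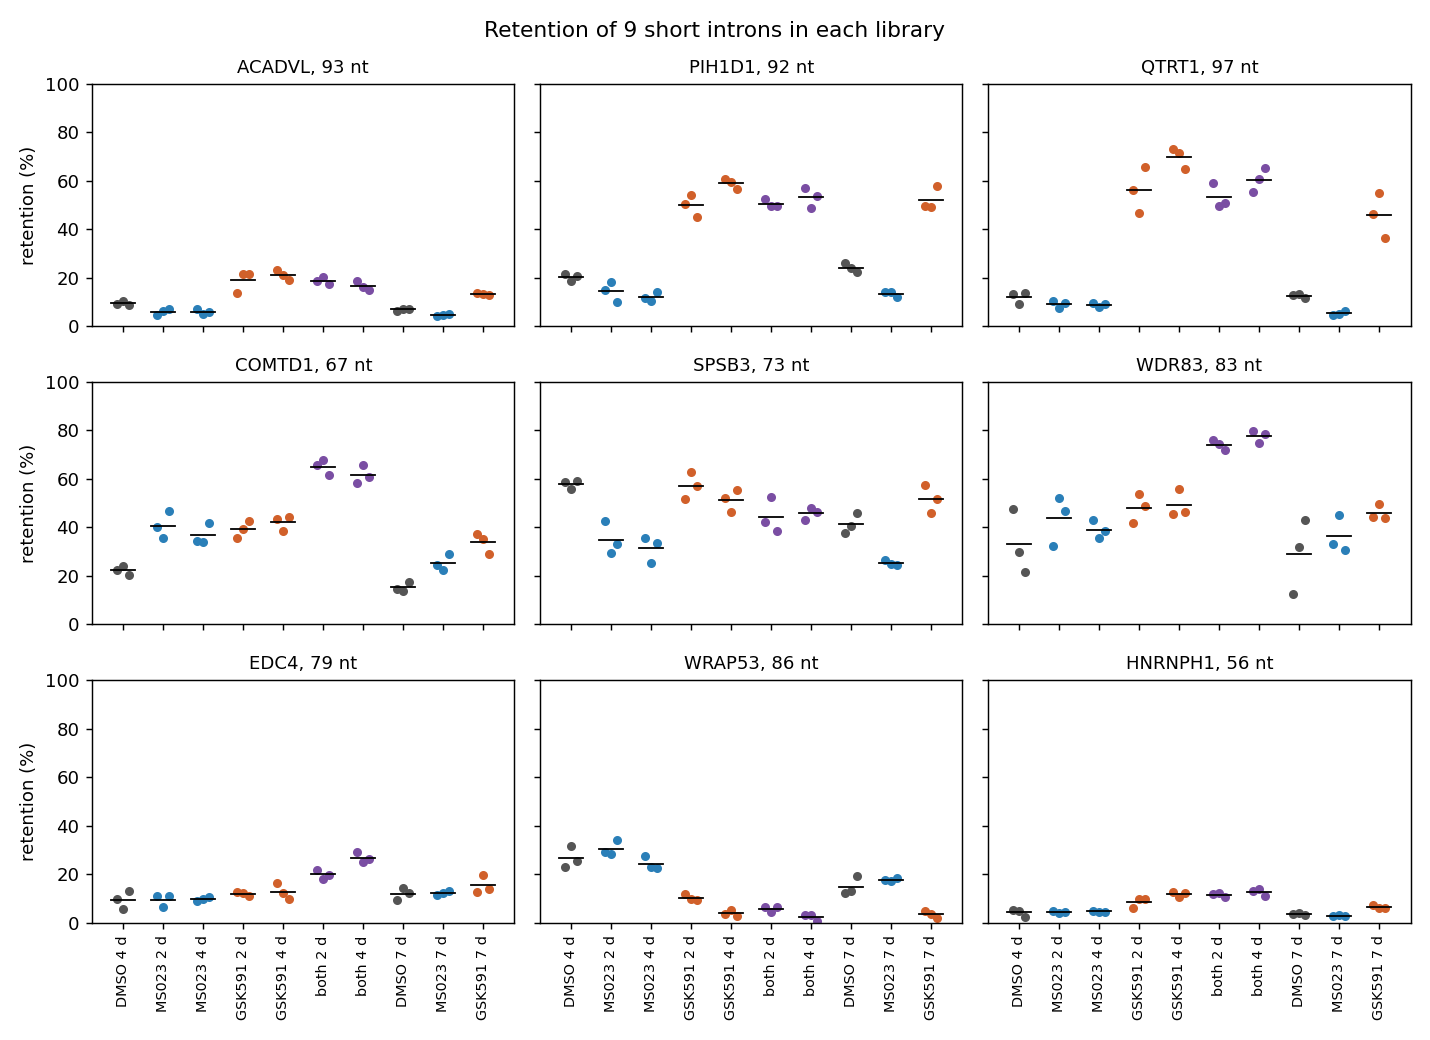
Retention (Ψ, in percent) of 9 short introns in each of the 30 libraries, by treatment and day; points are libraries and lines are means of 3. The means of ACADVL, PIH1D1, and QTRT1 lie above their DMSO group wherever GSK591 was given and below it where MS023 was given alone, COMTD1 and WDR83 are highest with co-treatment, and WRAP53 is lower than its DMSO group wherever GSK591 was given.

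The direct contrasts of GSK591 with MS023 use no DMSO library. GSK591 was higher for 239 and lower for 11 of 755 short introns at 2 days (all RI, 26.6% and 2.89%). At 4 days it was higher for 284 and lower for 11 of 770 (all RI, 35% and 3.66%), and at 7 days for 223 and 18 of 754 (all RI, 26.5% and 4.86%). At 2 days the 250 calls became 165 without GSK591 library b and 163 and 158 without MS023 library a or b. The introns with the largest differences included QTRT1, a subunit of the enzyme that places queuine in transfer RNA, and SGSM3, a Rab GTPase-activating protein. The 97-nt intron 2 of QTRT1 had 72.9%, 71.4%, and 64.9% with GSK591 and 9.64%, 7.80%, and 9.04% with MS023 at 4 days (difference 60.9 ± 2.5 points, adjusted p = 5.17e-05). The 84-nt intron 12 of SGSM3, which would add whole codons without a stop, had 78.6%, 76.03%, and 82.0% with GSK591 and 16.3%, 19.5%, and 15.8% with MS023 (difference 61.7 ± 2.1 points, adjusted p = 4.78e-05).

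Further introns among the largest differences were in NT5C, TRABD, and ALDH16A1. NT5C, a cytosolic nucleotidase, had 54.2%, 54.0%, and 60.2% with GSK591 and 9.92%, 15.2%, and 13.3% with MS023 at 2 days in its 75-nt intron 2, which an exon of the opposite strand overlaps (difference 43.3 ± 2.6 points, adjusted p = 0.000584). TRABD had 73.3%, 73.5%, and 73.2% with GSK591 and 15.8%, 28.5%, and 24.7% with MS023 at 7 days in its 79-nt intron 8 (difference 50.3 ± 3.8 points, adjusted p = 0.000393). In ALDH16A1, of the aldehyde dehydrogenase family, the 83-nt intron 6 had 68.9%, 76.9%, and 76.7% with GSK591 and 14.2%, 18.1%, and 7.68% with MS023 at 4 days, where DMSO had 22.8%, 18.0%, and 23.7% (difference 60.9 ± 4.0 points, adjusted p = 0.000395). In each of the 3 genes the GSK591 libraries were the higher ones. The groups did not overlap, but that was a condition for naming these introns.

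Co-treatment was set against GSK591 alone to ask what MS023 adds. At 2 days 0 of 753 short introns were called (all RI, 0% higher and 0.105% lower), with 78 at an unadjusted p under 0.05 and 1 called by limma. At 4 days 7 were higher and 7 lower of 778 (all RI, 0.994% and 1.5%), while limma called 0, with 102 at an unadjusted p under 0.05. These counts depend on how the dispersion is moderated. With introns whose Pearson dispersion was 0 left out of its prior, a form chosen after the calls had been seen, 13 were called at 2 days and 53 at 4 days, and without any 1 library 0 were called at 4 days.

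Introns called at 4 days were ranked if every library of the contrast had at least 50 reads and its groups did not overlap. The 3 largest differences were in WDR83, CCDC78, and SIRT7. WDR83, a WD40 repeat protein, had an 83-nt intron 3 at 45.5%, 55.8%, and 46.2% with GSK591 and 79.7%, 74.9%, and 78.6% with both (difference 28.6 ± 3.6 points, adjusted p = 0.0293). An exon of the opposite strand overlaps it. The 72-nt intron 12 of CCDC78, a centriole amplification protein, had 78.0%, 65.6%, and 74.9% with GSK591 and 97.5%, 97.02%, and 100% with both (difference 25.3 ± 3.8 points, adjusted p = 0.0317). SIRT7, a nuclear deacetylase, had a 71-nt intron 1 with 35.2%, 31.7%, and 38.1% with DMSO, 27.5%, 34.1%, and 27.6% with GSK591, 36.7%, 37.6%, and 31.8% with MS023, and 51.6%, 57.6%, and 52.8% with both. The co-treated libraries of SIRT7 lay above those of the other groups at 4 days, 2 of the GSK591 libraries lay below all DMSO and MS023 libraries, and ΔΨ of co-treatment against DMSO was 18.98 ± 2.6 (adjusted p = 7.64e-05). EDC4, a scaffold of mRNA decapping, had 16.3%, 12.4%, and 9.62% with GSK591 and 29.1%, 25.1%, and 26.1% with both in its 79-nt intron 20 (adjusted p = 0.0481).

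An interaction term tested, on the log odds of inclusion, whether the effects differed between 7 and 4 days, each against its own DMSO. The directions below are those of ΔΨ in percentage points, a scale that the test does not use. With GSK591 ΔΨ was higher at 7 than at 4 days for 1 and lower for 33 of 740 short introns (all RI, 0.378% and 5.85%). The single higher value was in FXR1, an RNA-binding protein (adjusted p = 0.0164). With MS023 ΔΨ was higher at 7 days for 0 and lower for 1 of 749 (all RI, 0.0536% and 0.241%), the latter in HNRNPH1 (92 nt), whose ΔΨ was -1.43 at 4 days and -4.63 at 7 days. Limma called 0 in each, with 112 and 39 at an unadjusted p under 0.05. Without GSK591 library a at 7 days 17 were called for GSK591, and without DMSO library a at 7 days 21. The 71-nt intron 17 of EML3, a microtubule-associated protein, had 62.2%, 62.5%, and 64.8% with GSK591 at 4 days and 35.9%, 30.0%, and 40.4% at 7 days, while DMSO had 16.3%, 17.4%, and 14.7% at 4 days and 15.1%, 17.5%, and 13.9% at 7 days (adjusted p = 0.00623 for the interaction). Between the DMSO groups themselves 0 short introns were higher and 1 lower at 7 than at 4 days, of 766 (all RI, 0.434% and 0.842%). The lower 1 was in SNHG5, a host of small nucleolar RNAs, at 2.35% and 1.30%. Of the tested introns 103 had an unadjusted p under 0.05, limma called 0, and the form with introns of a dispersion of 0 left out called 46.

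Gene groups were followed with GSK591 at 4 days, where the median ΔΨ was 2.83 points over all short introns tested and 1.96 over all RI, and where 36.7% of short introns and 33.9% of all RI rose. Among genes of transcription by RNA polymerase II, a list that also held TAF1C of RNA polymerase I, 12 of 20 introns rose (median ΔΨ 10.9 points). Of chromatin modifiers 7 of 12 rose (12.4 points). In mRNA export and decay genes 5 of 8 rose (11.1 points). Limma called 10, 6, and 5 introns of these 3 groups in either direction. The short introns of the 3 groups lay in 10, 9, and 5 genes. THOC6, a subunit of the THO export complex, had 6.32%, 8.39%, and 5.67% with DMSO and 50.3%, 45.4%, and 59.0% with GSK591 in its 100-nt intron 2 (ΔΨ 44.8 ± 4.1, adjusted p = 4.32e-10). In DNA repair and replication genes 6 of 11 introns rose (median ΔΨ 8.23 points). Limma called 5 in either direction, and the short introns of that list lay in 9 genes. Of this list MCM7, a subunit of the replicative helicase, had 4.80%, 4.88%, and 4.33% with DMSO and 14.2%, 14.5%, and 15.4% with GSK591 in its 75-nt intron 4. With both inhibitors MCM7 reached 20.8%, 20.8%, and 19.7% (against GSK591 alone, difference 5.75 ± 0.50 points, adjusted p = 0.0489). In that contrast limma called 0 short introns, and without any 1 library the quasi-binomial test called 0. MTA1, a subunit of the NuRD chromatin remodelling complex, had 23.9%, 22.6%, and 21.7% with DMSO and 38.5%, 39.9%, and 48.3% with GSK591 in its 76-nt intron 5 (ΔΨ 19.5 ± 3.1, adjusted p = 1.44e-06).

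Splicing factors had 3 of 10 introns higher (median 3.77 points), vesicle coat and trafficking genes 6 of 12 (3.86), and genes of ubiquitin ligases, proteases, and the proteasome 8 of 23 (1.94), where limma called 3, 5, and 2. The shares of splicing factors and of the ubiquitin group were near that of all RI. DDX23, a helicase of the U5 small nuclear ribonucleoprotein, had 1.41%, 1.20%, and 1.74% with DMSO and 10.99%, 13.8%, and 13.1% with GSK591 in its 99-nt intron 9 (ΔΨ 11.2 ± 0.85, adjusted p = 4.26e-10). In PRPF31, a tri-snRNP protein, the 86-nt intron 12 had 6.36%, 5.60%, and 6.43% with DMSO and 9.95%, 5.98%, and 9.84% with GSK591 (adjusted p = 0.0524). AP1G2, a clathrin adaptor subunit, had 24.4%, 21.7%, and 25.7% with DMSO and 50.4%, 61.9%, and 56.3% with GSK591 in its 81-nt intron 13. Of genes for translation and ribosomal proteins 13 of 26 rose (1.64) and 1 fell, and of hnRNP and related genes 5 of 10 rose (1.36) and 1 fell, with 6 and 4 called by limma. The hnRNP intron that fell was the 99-nt intron of HNRNPC, with 5.34%, 5.82%, and 4.81% in DMSO and 3.25%, 2.77%, and 3.84% with GSK591. Among the genes whose short introns are used in splicing studies 3 of 3 tested introns rose (25.4). These were the 56- and 92-nt introns of HNRNPH1, also counted in the hnRNP group, and the 71-nt intron of EML3. A small difference was called in a ribosomal protein intron with many reads, though limma called no short intron with MS023. RPL10, of the large ribosomal subunit, had 1.22%, 1.70%, and 1.56% with DMSO and 1.19%, 1.16%, and 1.19% with MS023 in its 90-nt intron (ΔΨ -0.313 ± 0.14, adjusted p = 0.0345). The median ΔΨ of these gene groups was not tested.

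Of the 8 shortest introns that begin and end with known splice-site dinucleotides and were tested in all comparisons with DMSO, 7 were almost entirely retained, with group means of Ψ between 95.2% and 100%. The other, a 50-nt intron of FBXL6, had means of 89.9% ± 5.9 (SD) with DMSO and 98.1% ± 1.6 with GSK591 at 4 days (adjusted p = 0.0333). It lies within a 68-nt intron of FBXL6 and shares its 5′ splice site. The 68-nt intron had 31.0% ± 1.2 with DMSO and 73.2% ± 6.0 with GSK591 at 4 days. Ψ of the 50-nt intron therefore need not be the share of all transcripts that keep its sequence. FBL, the methyltransferase of box C/D small nucleolar ribonucleoproteins, had 99.4%, 98.9%, and 99.7% with DMSO and 99.5%, 98.7%, and 99.9% with GSK591 at 4 days in its 39-nt GC-AG intron. PDHB, a subunit of pyruvate dehydrogenase, had 99.9%, 99.9%, and 100% with DMSO and 99.5%, 100%, and 99.4% with GSK591 at 7 days in a 54-nt intron that would add whole codons. None of the 7 was called in any comparison with DMSO. The 43-nt intron of ESRP2, an epithelial splicing regulator, had at most 2 reads in a library and could not be tested.

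XBP1, the transcription factor of the unfolded protein response, was looked at after its values were seen. Its 26-nt segment is removed by the endonuclease IRE1 in the cytoplasm and not by the spliceosome, and Ψ is then the share of unprocessed mRNA. With DMSO at 7 days it was 95.6%, 95.2%, and 93.9%, with GSK591 87.9%, 82.5%, and 84.2%, and with MS023 96.9%, 96.2%, and 94.9%. The GSK591 libraries lay below the others, with a ΔΨ of -10.1 ± 1.7 (adjusted p = 5.79e-05). With both inhibitors at 4 days ΔΨ was -9.96 ± 3.0 (adjusted p = 0.00148), and with GSK591 alone at 2 and 4 days -4.83 ± 1.8 and -5.23 ± 3.5 (adjusted p = 0.173 and 0.0908).

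At the limit of 100 nt, the introns just inside had Ψ with DMSO and GSK591 at 4 days of 99.96% ± 0.071 and 99.9% ± 0.10 (RPL13) and 2.36% ± 0.43 and 4.63% ± 0.98 (SPATA20). The introns just outside, longer than the limit by 1 nt, had 0.556% ± 0.038 and 0.611% ± 0.084 (RPL14) and 2.05% ± 0.34 and 2.43% ± 0.42 (AHCY).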

How the data were processed

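The 30 poly(A)-RNA libraries of A549 cells were grouped by the sample labels. The authors trimmed the reads with Trim Galore 0.6.5, aligned them to hg19 with STAR 2.4.2a (versions per the submitters' processing notes), and counted splicing events with rMATS (release not given here), 1 table per inhibitor group with its DMSO group. The deposited tables hold, for each event and library, whole-number inclusion and skipping counts written as lists, with effective lengths. They also hold the authors' own Ψ and test columns, of which the latter were not used. Ψ recomputed from the counts differed from the deposited value by at most 0.0005 on the scale of 0 to 1. The control of the 7-day tables was inferred from the labels. DMSO counts were identical wherever tables share a control (0 differed), which allowed direct contrasts. All per-sample columns of RI were used (0 not used).

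Introns with at least 10 reads in every library of a comparison were tested on both counts with a quasi-binomial model, with the Pearson dispersion moderated by limma 3.58.1 in R 4.3.3 over all introns tested and held at 1 or above. The test was run on simulated counts with the same extra spread between libraries set for every intron. That simulation cannot show which form of the dispersion suits the real libraries, and its results are not given here. During the analysis 8 forms of the dispersion, differing in the residual, robustness, floor, and degrees of freedom, were compared on call counts. A further form, which leaves introns of a dispersion of 0 out of the prior, was chosen after the calls had been seen and served for a time as the main fit. It raises the counts of the direct contrasts, and the residual degrees of freedom alone lower most counts. The form first set out for the analysis is reported, and the others only as alternatives. Other alternatives were Ψ without the length correction, other read minimums, limma on log odds, and leaving out libraries.

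The introns, gene lists, and named introns were chosen with earlier results of these data known. Named were the shortest introns tested in all comparisons, the largest called differences with at least 50 reads per library and no overlap, those called in all 8 comparisons or in opposite directions, those with most reads in each gene list, and those nearest 100 nt; XBP1 was added after its values were seen. Features came from GRCh37 and its GENCODE annotation. Read counts limit the precision of each Ψ. Some introns named by this rule are not reported here.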

Additional observations from a re-analysis of the deposited data

Results flagged for a closer look

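The effect of GSK591 against its own DMSO differed between 7 and 4 days for 34 short introns in the interaction test on log odds. There limma called 0, and 112 had an unadjusted p under 0.05. Among the named introns the effect at 7 days minus that at 4 days was -24.4 points in the 97-nt intron of QTRT1, -13.6 in the 75-nt intron of NT5C, -9.49 in the 92-nt intron of HNRNPH1, and -27.1 in the 71-nt intron of EML3. The effect of MS023 differed for 1 short intron, the 92-nt intron of HNRNPH1, by -3.20 points.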

How the results depend on the processing

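No paired analysis was possible because the columns carry no replicate number. Of 182 values under other settings with all libraries, 143 stayed within 1.5 times the main count or within the spread. Of 108 counts with 1 library left out, 56 stayed within 1.5 times the main count and 52 did not. Limma called 137 short introns with GSK591 at 2 days, 0 with MS023 on each day, 1 and 0 for co-treatment against GSK591 at 2 and 4 days, 0 between DMSO groups, and 0 for both interactions. With the dispersion not held at 1, 2 and 22 were called for co-treatment against GSK591 and 12 between DMSO groups. With introns of a dispersion of 0 left out of the prior, chosen after seeing the data, the counts were 13, 53, and 46, and 281, 339, and 294 for GSK591 against MS023 at 2, 4, and 7 days, where the main counts were 250, 295, and 241. Other forms of the dispersion were compared with the calls in view. With the residual degrees of freedom alone, counts were 63, 166, and 87 with GSK591, 0 with MS023 on each day, 116 and 171 with both, 1 for co-treatment against GSK591 at 4 days, and 0 between DMSO groups. For co-treatment against GSK591 at 2 and 4 days and between DMSO groups, counts were 11, 45, and 45 with robust moderation, 10, 41, and 41 with robust deviance, 19, 57, and 46 when held at 1 before moderation, and 2, 22, and 11 with deviance not held at 1. At least 20 reads gave 3 between DMSO groups. The median over libraries of the median Ψ was 11.6%, or 16.9% without the length correction. The cause of these shifts was not tested.

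Leaving out each library in turn gave 130 to 179, 217 to 229, and 125 to 147 calls with GSK591 at 2, 4, and 7 days, 0 to 0, 0 to 1, and 3 to 13 with MS023, and 190 to 212 and 228 to 250 with both. It gave 158 to 195, 233 to 256, and 185 to 197 for GSK591 against MS023, 0 to 0 and 0 to 0 for co-treatment against GSK591, 0 to 0 between DMSO groups, and 17 to 36 and 0 to 1 for the interactions. Fewer libraries leave fewer degrees of freedom. For introns named in the text, 626 of 8748 such refits lost a call, 18 gained one, and 0 reversed. Leaving out the length correction changes Ψ but not the counts that are tested, so no call could change. Among the 1296 values under that setting no called difference reversed its direction. Depth limits introns such as that of ESRP2.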
